A study of Mus musculus with 12 samples.

Results

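The amyloid precursor protein gene App, its relatives Aplp1 and Aplp2, the prion protein gene Prnp, the secretase genes Adam10, Bace1, Psen2 and Ncstn, and the tau gene Mapt were read in every library of a mouse brain RNA-seq series. These 9 genes were found by their symbols among 43629 gene IDs, and all 9 were among the 19145 genes tested. App was chosen by its CPM in 1 library, called PBS male 3 below, and the rest by name with results of the same data in view, so the levels in that library are described with no test. RNA was read in 12 libraries, 3 in each of 4 groups. In the collagen domain females and collagen domain males, newborn mice had an rAAV (a viral gene carrier) with a collagen domain construct put into the brain ventricles, and the PBS females and PBS males had PBS alone. All groups were taken at 3 months of age, and no group had a vector without the construct. The strain, the promoter of the construct, the cells it reached and whether each library was a separate mouse are not given in the sources used here, so a p-value here reflects library-to-library spread, which may be technical.

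App is a membrane protein that is cut in steps. An alpha-secretase such as Adam10 cuts it within the amyloid-beta stretch, whereas Bace1, the beta-secretase, cuts at its start, after which the gamma-secretase complex of a presenilin, nicastrin (Ncstn), Aph1 and Psenen frees amyloid-beta. Aplp1 and Aplp2 are cut by many of the same enzymes but lack the amyloid-beta stretch. Prnp encodes the cell-surface prion protein, which misfolds in prion disease, and Mapt encodes tau, a microtubule-binding protein that aggregates in Alzheimer disease. In mouse models with amyloid plaques, microglia near plaques raise genes such as Cst7, Clec7a and Itgax, and astrocytes raise Gfap.

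The promoters of the 3 precursor genes and of Prnp are shown because App stood apart from the other genes in 1 library. Each is a RefSeq window of 300 bases, from 250 before to 50 after the gene's start, on the GRCm38.p6 build, 5′ to 3′ on the gene's own strand, with GGGCGG or its reverse complement CCGCCC (the GC box) in capitals.
App, chr16:85173658-85173957, minus strand: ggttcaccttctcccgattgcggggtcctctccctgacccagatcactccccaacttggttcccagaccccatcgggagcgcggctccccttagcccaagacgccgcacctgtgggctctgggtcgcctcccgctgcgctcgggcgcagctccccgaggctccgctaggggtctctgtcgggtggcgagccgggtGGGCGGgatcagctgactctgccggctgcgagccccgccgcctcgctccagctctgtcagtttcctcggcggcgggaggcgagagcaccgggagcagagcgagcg
Aplp1, chr7:30445533-30445832, minus strand: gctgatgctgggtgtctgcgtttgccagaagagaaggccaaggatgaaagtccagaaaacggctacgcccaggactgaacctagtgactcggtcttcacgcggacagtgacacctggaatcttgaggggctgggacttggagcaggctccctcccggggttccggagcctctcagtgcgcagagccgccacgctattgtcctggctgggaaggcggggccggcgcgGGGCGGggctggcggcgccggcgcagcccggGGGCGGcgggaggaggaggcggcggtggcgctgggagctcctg
Aplp2, chr9:31211799-31212098, minus strand: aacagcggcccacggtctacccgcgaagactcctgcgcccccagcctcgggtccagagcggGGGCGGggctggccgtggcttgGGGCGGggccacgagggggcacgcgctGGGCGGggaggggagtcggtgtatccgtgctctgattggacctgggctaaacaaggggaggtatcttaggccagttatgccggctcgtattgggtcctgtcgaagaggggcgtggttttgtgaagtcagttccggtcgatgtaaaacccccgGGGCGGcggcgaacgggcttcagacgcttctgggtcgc
Prnp, chr2:131909678-131909977, plus strand: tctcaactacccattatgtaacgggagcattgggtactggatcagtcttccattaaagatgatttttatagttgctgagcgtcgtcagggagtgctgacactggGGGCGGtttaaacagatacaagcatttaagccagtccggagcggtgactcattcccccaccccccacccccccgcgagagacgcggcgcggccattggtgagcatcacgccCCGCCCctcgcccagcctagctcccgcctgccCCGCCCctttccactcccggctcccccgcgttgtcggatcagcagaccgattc
The App window held 1 GC box, the Aplp1 window 2, the Aplp2 window 4 and the Prnp window 3, counted on both strands. Of 32851 such windows over all genes, 35.7% held at least 1. G and C made up 71.0% of the App window, 68.7% of the Aplp1 window, 67.0% of the Aplp2 window and 60.0% of the Prnp window, against a median of 52.7% over all windows. TATAAA, searched on both strands, was found only in the Prnp window among the 4, and 13.6% of all windows held it. In the Prnp window it lies on the strand opposite the gene's own, nearer the window's first base than the gene's start.

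Before the results, the libraries were read against their labels. Depth ran from 39272127 to 52323985 reads. Reads of C1qtnf3, the gene whose collagen domain the series title names, went against the treatment label in 4 libraries, and reads of the sex-linked genes Xist and Ddx3y went against the sex label in 4. In 3 libraries both did, and in 5 at least 1 did: the libraries labelled collagen domain female 1, collagen domain female 3, collagen domain male 3, PBS male 1 and PBS female 2. PBS male 3 was not among them. The extract protocol names forebrain, but genes of cerebellum and hindbrain summed to 1034 CPM in PBS male 3 and to 636 to 1156 CPM in 4 other libraries, against 223 to 285 CPM in the remaining 7. Mitochondrial genes held 9.67% of reads in PBS male 3, 9.86% in PBS female 1 and 7.37 to 8.83% in the others.

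App was far higher in PBS male 3 than in any other library. In CPM, a library's reads scaled by its TMM-adjusted total, it stood at 1293, 1512 and 1327 in the collagen domain females and at 1365, 1375 and 1274 in the collagen domain males. It stood at 1355, 1477 and 1486 CPM in the PBS females and at 1306, 1322 and 2517 CPM in the PBS males. The value in PBS male 3 was thus 1.86 times the median of the other 11 libraries and 1.66 times the highest of them, while those 11 spanned only 1.19-fold. On the log2 scale the gap to their median was 0.89, against an SD of 0.0859 among the 11. App had between 55574 and 96192 reads in each library. The table gives reads per gene only, so it does not show which copy or allele of App, or whether a transgene, the reads came from.

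**Figure D1:**
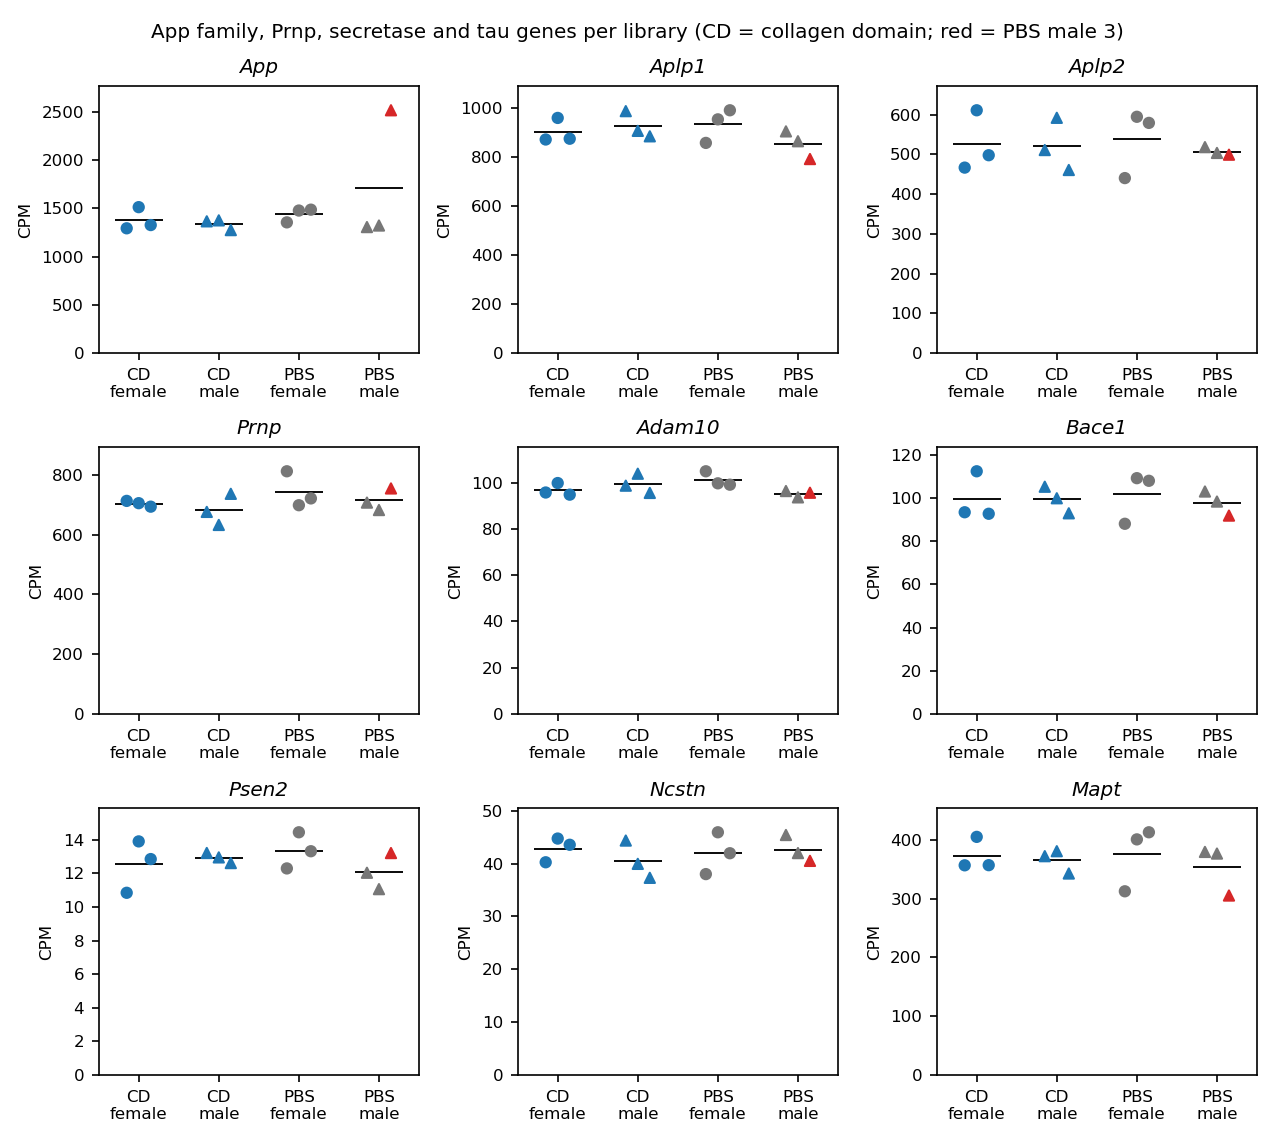
CPM of the 9 genes in each library, from 0 up, for collagen domain (CD, blue) and PBS (grey) females (circles) and males (triangles), with group means as lines and PBS male 3 in red. App reaches 2517 CPM in PBS male 3 and lies between 1274 and 1512 CPM in the other 11 libraries, while the other 8 genes show no such gap.

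No other gene of the 9 had its highest level in PBS male 3. The count highest there was thus 1 of 9, beside 17.3% of all genes tested, and 2 of 9, Aplp1 and Mapt, were lowest there, beside 18.3% of all genes. PBS male 3 stood at the end of the range for more genes than any other library, so a place at an end is common in it. A lead of the size of App's is not: only 68 genes (0.355%) were at least 1.5-fold above the highest of the other 11. Among the 2169 genes with a median of at least 100 CPM in those 11, App and Gfap were the only 2. By the ratio to the median of the other 11, App ranked 10 among these 2169 genes. At least 2-fold below the lowest of the others lay 0.23% of all genes, and none of the 9. These counts describe 1 library and carry no test.

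The relatives of App did not share its lead. Aplp1, a precursor family member found mainly in neurons, was at 792 CPM in PBS male 3, and the lowest, median and highest of the other 11 libraries were 858, 905 and 991 CPM. Aplp2, its more widely expressed relative, was at 499 CPM in PBS male 3, inside the range of 440 to 611 CPM of the other 11 and near their median of 511 CPM. Reads of App per read of Aplp1 came to 3.18 in PBS male 3, against 1.38 to 1.58 in the other 11 libraries. The App to Aplp2 ratio was 5.04 in PBS male 3, against 2.32 to 3.08 elsewhere. Both ratios are taken within a library and do not depend on scaling between libraries.

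Aplp2 was highest in 4 libraries. It was at 611 CPM in collagen domain female 2, 592 CPM in collagen domain male 2, 594 CPM in PBS female 2 and 579 CPM in PBS female 3, and at 440 to 518 CPM in the other 8 libraries. Those 4 are the libraries, besides PBS male 3, with many cerebellum and hindbrain reads, and they come from both treatments. PBS male 3 had as many such reads but an Aplp2 level of 499 CPM. Leaving PBS male 3 aside, App and Mapt were also highest in those 4 libraries. App was at 1375 to 1512 CPM in them and at no more than 1365 CPM in the rest. Mapt was at 381 to 413 CPM in them and at no more than 380 CPM in the rest. In bulk tissue, fewer cells of a type and less RNA per cell cannot be told apart, and the part of tissue makeup in these levels was not tested.

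Prnp was within the range of the other libraries. It stood at 755 CPM in PBS male 3, second to 812 CPM in PBS female 1, with 633, 705 and 812 CPM as the lowest, median and highest of the other 11. Reads of App per read of Prnp came to 3.33 in PBS male 3, against 1.67 to 2.17 elsewhere. Its paralog Sprn, which encodes the Shadoo protein, was at 111 CPM in PBS male 3 and 106 to 142 CPM in the others, and Prnd, which encodes Doppel, had too few reads to be tested.

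The secretases did not share the lead of App either. Adam10, the main alpha-secretase of neurons, was at 95.6 CPM in PBS male 3, against 93.6, 98.7 and 105 CPM as the lowest, median and highest of the other 11. It varied least of the 9 genes, by 1.12-fold over all 12 libraries. Bace1 was at 91.9 CPM in PBS male 3, against 88.1, 99.9 and 112 CPM elsewhere. Psen2, a presenilin of the catalytic core of gamma-secretase, was at 13.2 CPM in PBS male 3, against 10.8, 12.9 and 14.4 CPM. Ncstn, the subunit that receives the substrate, was at 40.5 CPM, against 37.3, 42.0 and 45.9 CPM. Each of these 4 genes had PBS male 3 inside the range of the other 11 libraries. Psen2 had the fewest reads of the 9 genes, 468 to 706 per library, so its counts are the least precise.

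Of the gamma-secretase subunit genes Psenen, Aph1a, Aph1b and Aph1c, Psenen alone had its highest level in PBS male 3, at 45.6 CPM against 30.7 to 38.8 CPM in the other 11. Aph1c was lowest there, at 11.5 CPM against 12.2 to 14.7 CPM, and Aph1a and Aph1b lay within the range of the others. Of 9 other sheddases and beta-site enzymes, none was highest in PBS male 3 and 2 were lowest, Adam22 and Mmp14. Over all genes tested these shares were 17.3 and 18.3%, so 2 of 9 lowest is near the share of all genes. Mmp14, a membrane-bound metalloproteinase, stood at 4.42 CPM there and at 5.49 to 9.76 CPM in the others.

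Mapt was at 305 CPM in PBS male 3, the lowest of the 12 libraries, next to 313 CPM in PBS female 1. The other 11 had a median of 377 CPM and a highest value of 413 CPM. Of 16 tau relatives and tau kinases, 9 were also lowest in PBS male 3, beside 18.3% of all genes tested. Among these was Map2, at 826 CPM against 852 to 1050 CPM in the others. Map2 encodes a microtubule-binding protein of dendrites. A summed list of neuron markers was at 6863 CPM in PBS male 3, inside the 6518 to 7185 CPM of the other 11, and a list of forebrain markers at 391 CPM, inside 381 to 539 CPM.

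**Figure D2:**
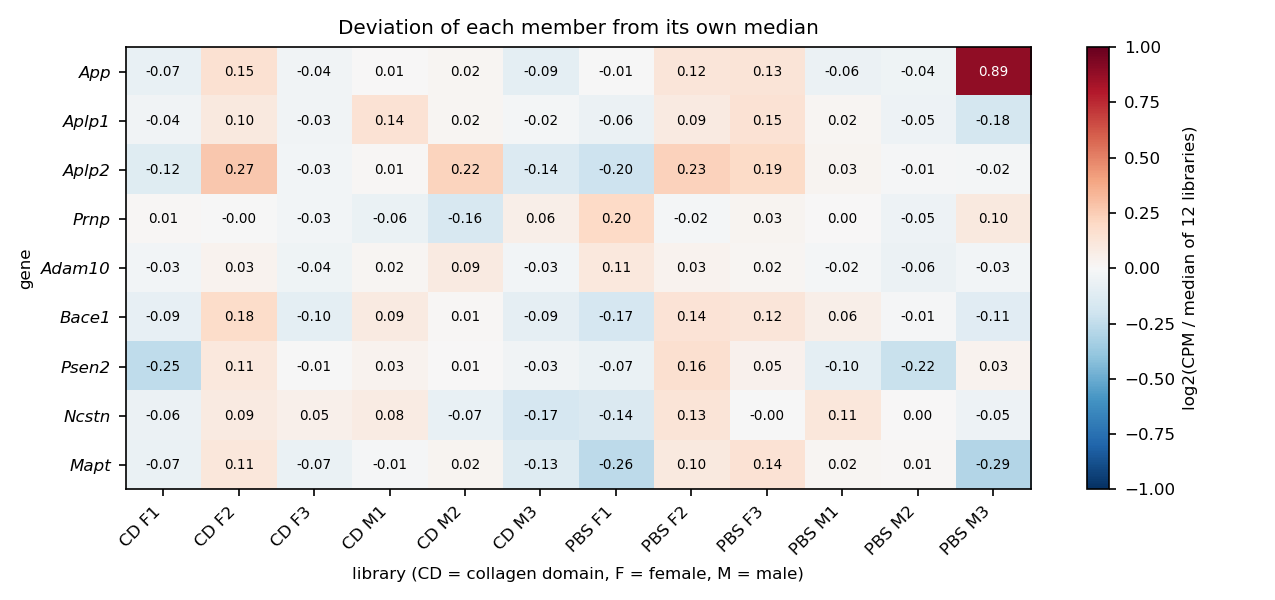
Each gene's log2 ratio of CPM to its own median over the 12 libraries (colour and number), with genes as rows and libraries as columns (CD, collagen domain). App in PBS male 3 is the only cell beyond 0.3 in either direction, at 0.89.

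The wider pathway was read from 7 lists of 76 tested genes: the 2 enzyme lists above, adaptors, sorting factors, amyloid-beta breakdown and carriage, the prion family and the tau list. PBS male 3 was highest for 13.2% of them and lowest for 31.6%, beside 17.3 and 18.3% of all genes tested. Of 13 adaptor genes, Itm2b and Nae1 were highest there and 4 were lowest. Itm2b, whose product binds App, was at 775 CPM in PBS male 3 and 611 to 749 CPM in the others. Among 18 sorting and uptake genes, 3 were highest in PBS male 3 and 8 lowest. Vps35, a retromer subunit that returns cargo from endosomes, was at 299 CPM there against 213 to 280 CPM, and Sort1, a sorting receptor, at 341 CPM against 402 to 487 CPM.

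Genes of amyloid-beta breakdown and carriage summed to 4709 CPM in PBS male 3, above the 3227 to 4163 CPM of the other 11 libraries. Of their 14 genes, 3 were highest there, beside 17.3% of all genes, and the median log2 difference of the list was 0.07. Cst3, the secreted protease inhibitor cystatin C, was at 1994 CPM in PBS male 3 against 745 to 1499 CPM. Apoe, the lipid carrier, was at 1242 CPM against 990 to 1163 CPM, and Clu, a secreted chaperone, at 596 CPM against 504 to 570 CPM. The proteases Ide and Mme lay inside the range of the others, at 47.2 and 24.9 CPM in PBS male 3 against 41.2 to 53.0 CPM for Ide and 22.2 to 26.8 CPM for Mme.

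Genes known from microglia at plaques were high in the same library as App. Of 24 such genes, 22 had enough reads to be tested, and 15 of these 22 were highest in PBS male 3, beside 17.3% of all genes. Their median log2 difference from the other 11 was 0.71, against -0.0039 for all genes. Of the 22 tested, 5 lay at least 2-fold above every other library, beside 0.0627% of all genes tested. The chemokine genes Ccl3 and Ccl4, with too few reads to be tested, did so too, at 39 and 22 reads in PBS male 3 against at most 9 reads each in the others. Cst7, an inhibitor of lysosomal proteases, had 299 reads in PBS male 3 and 1 to 14 reads in the other 11, or 7.82 CPM against 0.0232 to 0.326 CPM. Cst7 had enough reads to be tested only through PBS male 3, so its place among the 15 and the 5 is no evidence. Clec7a, a receptor for fungal glucans, stood at 2.98 CPM against 0.209 to 0.606 CPM. Itgax, an integrin subunit, stood at 3.01 CPM against 0.125 to 0.691 CPM. Ccl6, a chemokine, was at 5.76 CPM against 0.614 to 1.68 CPM. Tyrobp, the adaptor through which Trem2 signals, was at 37.3 CPM against 7.82 to 17.6 CPM, and Trem2 at 23.2 CPM against 9.06 to 17.2 CPM.

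**Figure D3:**
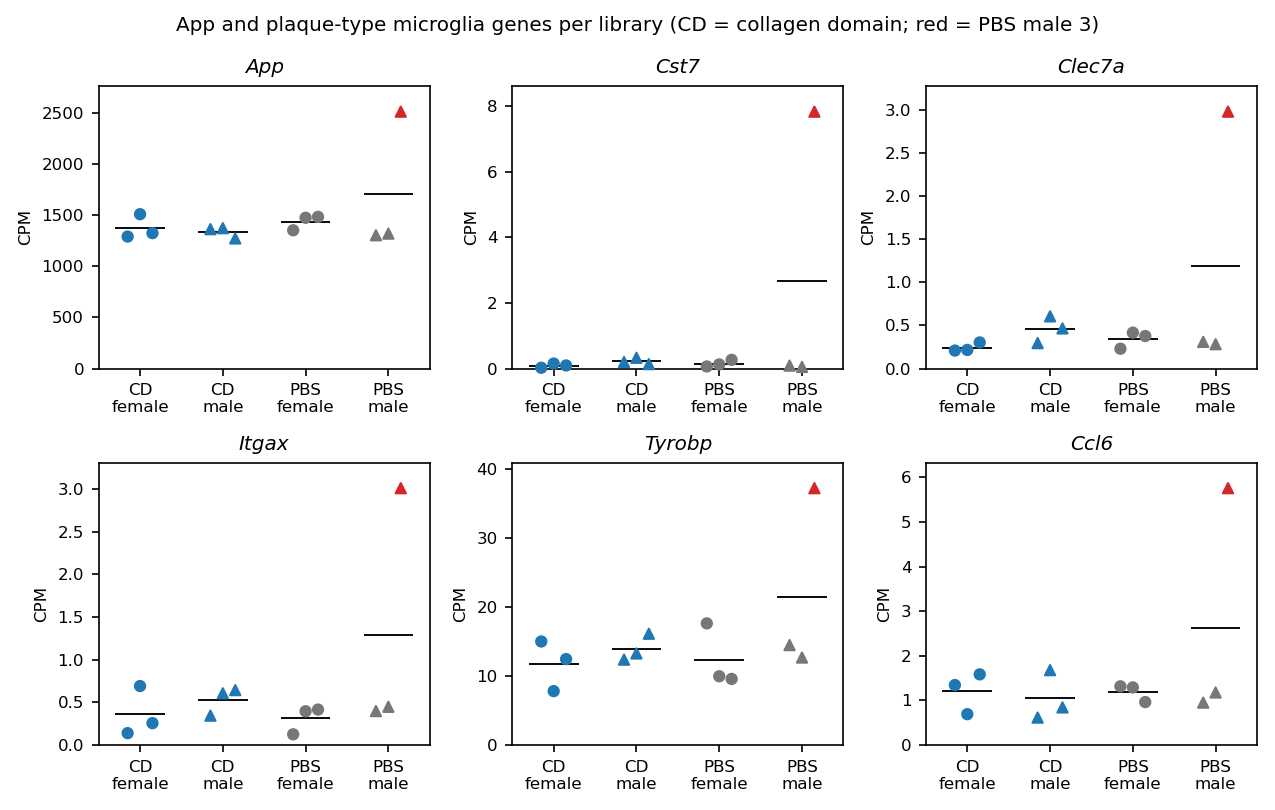
CPM of App and of the 5 tested plaque-type microglia genes at least 2-fold above every other library in PBS male 3 (red), for collagen domain (CD, blue) and PBS (grey) females (circles) and males (triangles), with group means as lines. All 6 genes were picked for their level in PBS male 3, so their highest value there restates that choice. Cst7 stands at 7.82 CPM there against at most 0.326 CPM elsewhere, and had enough reads to be tested only through that library.

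By summed level, the plaque-type and reactive astrocyte lists were both highest in PBS male 3. The plaque-type list summed to 1700 CPM in PBS male 3, to 1234 to 1416 CPM in the collagen domain libraries and to 1233 to 1393 CPM in the remaining PBS libraries. The cathepsin genes Ctsb and Ctsd were the largest parts of this sum in PBS male 3. Ctsb was at 530 CPM there, inside the 452 to 545 CPM of the others, and Ctsd at 456 CPM, above their 270 to 328 CPM. The sum is thus no measure of plaque-type microglia alone. Reactive astrocyte genes summed to 591 CPM in PBS male 3 and to 223 to 376 CPM in the other 11. Of these 10 genes, 4 were highest there and 1 lowest, beside 17.3 and 18.3% of all genes tested. The sums were 325 to 376 CPM in the 4 other libraries with many cerebellum and hindbrain reads and 223 to 312 CPM in the rest. The part of tissue makeup in these sums was not tested. Gfap, the intermediate filament of astrocytes, was at 449 CPM against 142 to 248 CPM and made up most of the sum in PBS male 3. Homeostatic microglia genes summed to 341 CPM in PBS male 3, against 270 to 339 CPM. Of these 9 genes, 2 were highest there and 1 lowest, near the shares of all genes tested. P2ry12, a purine receptor of resting microglia, was at 44.3 CPM there, inside the 36.9 to 50.1 CPM of the others. No defining marker of the microglia and astrocyte lists named here was at 0 in PBS male 3. The part of these cell types in the App level was not tested.

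**Figure D4:**
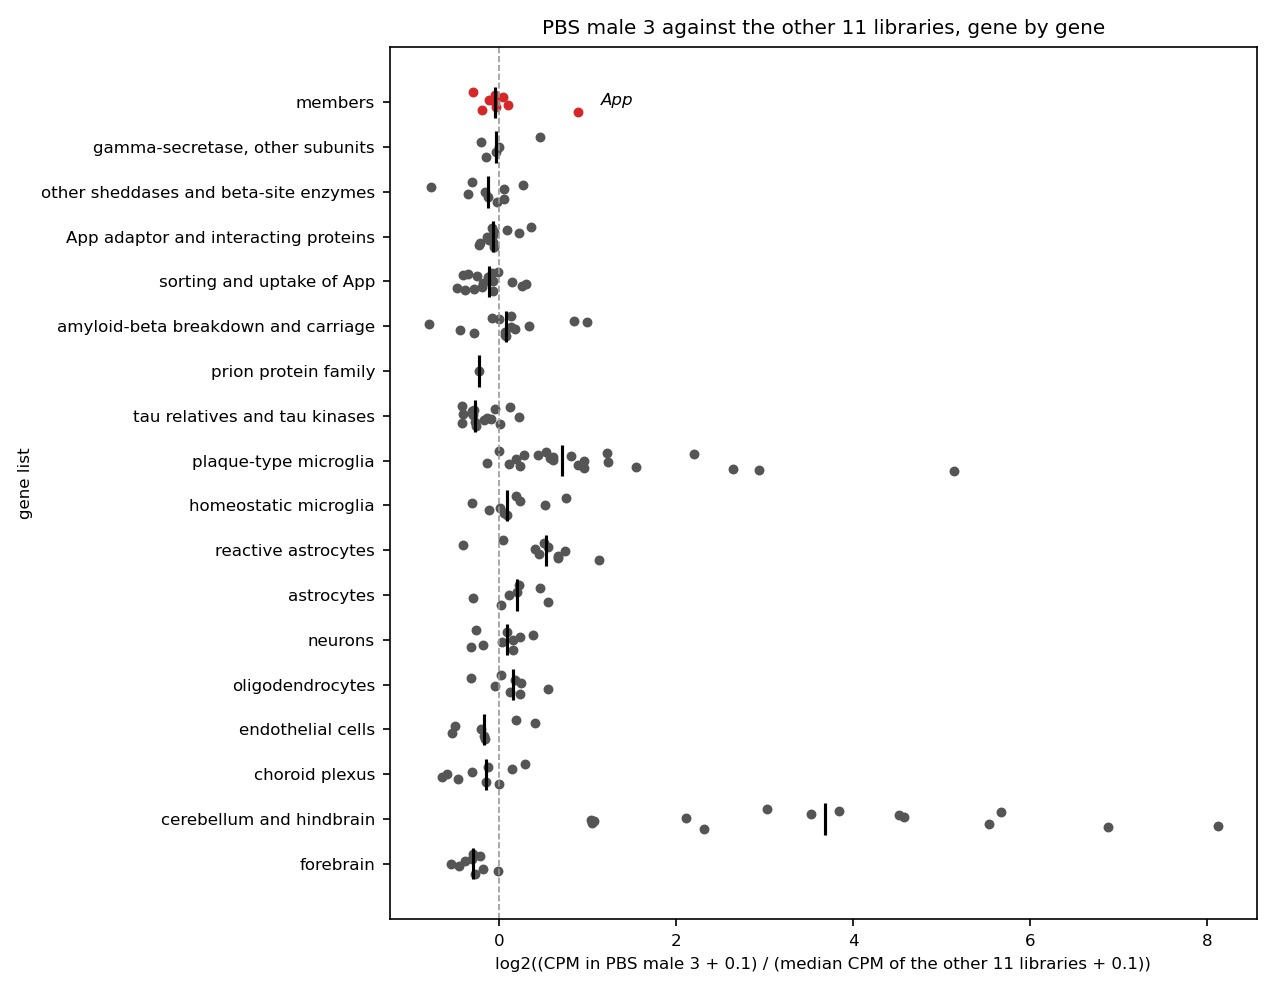
Log2 ratio of CPM in PBS male 3 to the median of the other 11 libraries (0.1 CPM added to both) for each tested gene of each list, with the list median as a bar and the 9 genes described here in red. App stands at 0.89 apart from the other 8, the plaque-type microglia genes have a median of 0.71, and the cerebellum and hindbrain genes reach farthest.

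None of the 10 tested coding genes nearest to App on chromosome 16 had a ratio in PBS male 3 as large as App's. The 5 on each side, in the order of the GRCm38 annotation, stood in PBS male 3 at 0.815 to 1.39 times the median of the other 11 libraries, with a median ratio of 0.991. Of these 10, 3 were highest in PBS male 3 and 2 lowest, beside 17.3 and 18.3% of all genes. In a second list of 12 genes of that region, 5 were highest there and 2 lowest, and the sum was 654 CPM in PBS male 3 against 562 to 643 CPM in the other 11. The nearest, Gabpa and Cyyr1, were at 1.01 and 0.815 times that median, whereas App was at 1.86 times. Around Prnp on chromosome 2 the same 10 places gave 0.707 to 1.22 times, with 1 gene highest and 3 lowest.

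The genes most like App over the 12 libraries, by Pearson correlation of log2 CPM, were Sqle (r = 0.94), Cst7 (0.94), Arsk (0.93), Cdkl1 (0.92) and Gnl3l (0.92). These values rest on PBS male 3, which is the highest library for App and for each of the 5. Cst7 also had enough reads to be tested only through that library. Over the 11 libraries without PBS male 3, r was 0.72 for Sqle, 0.52 for Cst7, 0.60 for Arsk, 0.36 for Cdkl1 and 0.37 for Gnl3l. Over those 11, genes most like App included Irf2bp1 (0.97) and Sec23b (0.96). All are descriptions over libraries that share depth and tissue makeup, picked as the highest of 19145.

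Without PBS male 3, App varied with most of the other 8 genes. Over the 11 libraries r was 0.81 with Aplp2, 0.77 with Bace1, 0.76 with Psen2, 0.75 with Aplp1 and 0.68 with Mapt. It was 0.47 with Adam10 and with Ncstn, and -0.08 with Prnp. With PBS male 3 included, the same values were 0.14, -0.07, 0.37, -0.41, -0.39, -0.07, -0.006 and 0.27. The share of all genes with such values was not computed. Among the 11, App, Aplp2 and Mapt were all highest in the libraries with many cerebellum and hindbrain reads. The part of tissue makeup in these values was not tested. Over the 11 libraries Mapt followed Bace1 (r = 0.92) and Aplp2 (r = 0.90) most closely. Prnp ran against Mapt (r = -0.59) and Aplp2 (r = -0.58), and Adam10 followed none of the others above 0.47. The genes of the whole table most like Aplp2 were Dlst (0.99), Rab11fip5 (0.99) and Atp1b2 (0.99). Those most like Mapt were Adar (0.98), Copg2 (0.98) and Pm20d2 (0.98). The first for the remaining genes were Daglb for Aplp1, Gmpr for Prnp, Gm14597 for Adam10, Afg3l2 for Bace1, Mocs1 for Psen2 and Xdh for Ncstn, at 0.92 to 0.96.

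Levels between genes were compared as CPM per kilobase of the longest coding transcript. By medians over the 12 libraries the order was Aplp1 (382), Prnp (323), App (167), Aplp2 (140), Mapt (71.3), Adam10 (21.2), Bace1 (16.4), Ncstn (14.5) and Psen2 (6.39 CPM per kilobase). The ranges of Aplp1 and Prnp overlapped, as did those of App and Aplp2 and of Bace1 and Ncstn, while Prnp and App overlapped through PBS male 3 alone. With the length of the principal transcript in the annotation, App became first at 428 and Mapt reached 275 CPM per kilobase, so the places of these genes depend on the transcript taken. With either length, the lowest library of App, Aplp1, Aplp2, Prnp and Mapt lay above the highest of Adam10, Bace1, Psen2 and Ncstn (58.1 against 22.8 CPM per kilobase at the closest).

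The study set collagen domain against PBS, and none of the 9 genes passed in any comparison. By edgeR's quasi-likelihood F-test with Benjamini-Hochberg adjustment at 0.05, 0 of 19145 genes (0%) passed in both sexes together, and 354 (1.85%) had an unadjusted p under 0.05, none of them among the 9. App averaged 1358 ± 85.3 CPM with collagen domain and 1577 ± 467 CPM with PBS (SD, n = 6 each), a log2 fold change of -0.21 (SE 0.146, edgeR adjusted p = 1). Without PBS male 3 the PBS mean was 1389 ± 86.4 CPM (n = 5) and the log2 fold change -0.02 (SE 0.0548, edgeR adjusted p = 1). Permuting the labels of App within each sex (two-sided, exact) gave p = 0.33 over 400 arrangements with all libraries and p = 0.53 over 200 without PBS male 3. The treatment groups overlapped for all 9 genes, while over all genes 0.0313% had every collagen domain library above every PBS library and 0.0366% the reverse.

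The other 8 genes lay close to no difference. Aplp1 averaged 915 ± 48.4 CPM with collagen domain and 894 ± 71.8 CPM with PBS (SD, n = 6 each), a log2 fold change of 0.03 (SE 0.0614). Prnp averaged 693 ± 35.8 CPM with collagen domain and 729 ± 47.3 CPM with PBS (SD, n = 6 each), a log2 fold change of -0.07 (SE 0.0549). The remaining 6 lay between -0.02 for Ncstn (SE 0.0630) and 0.02 for Mapt (SE 0.0805). With adjustment over all genes tested, a difference has to be many times its SE to pass. Differences of a few times these errors could therefore also go unseen here. Prnp, whose difference exceeded its SE, did not pass either. Leaving out the 5 libraries whose reads go against a label moved App to -0.27 (SE 0.233), Aplp2 to 0.17 (SE 0.116), Prnp to -0.15 (SE 0.0926), Mapt and Bace1 to 0.13 each and Aplp1 to 0.12, with edgeR adjusted p of 0.683 or more. With PBS male 3 left out as well, App stood at 0.06 (SE 0.0884).

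**Figure D5:**
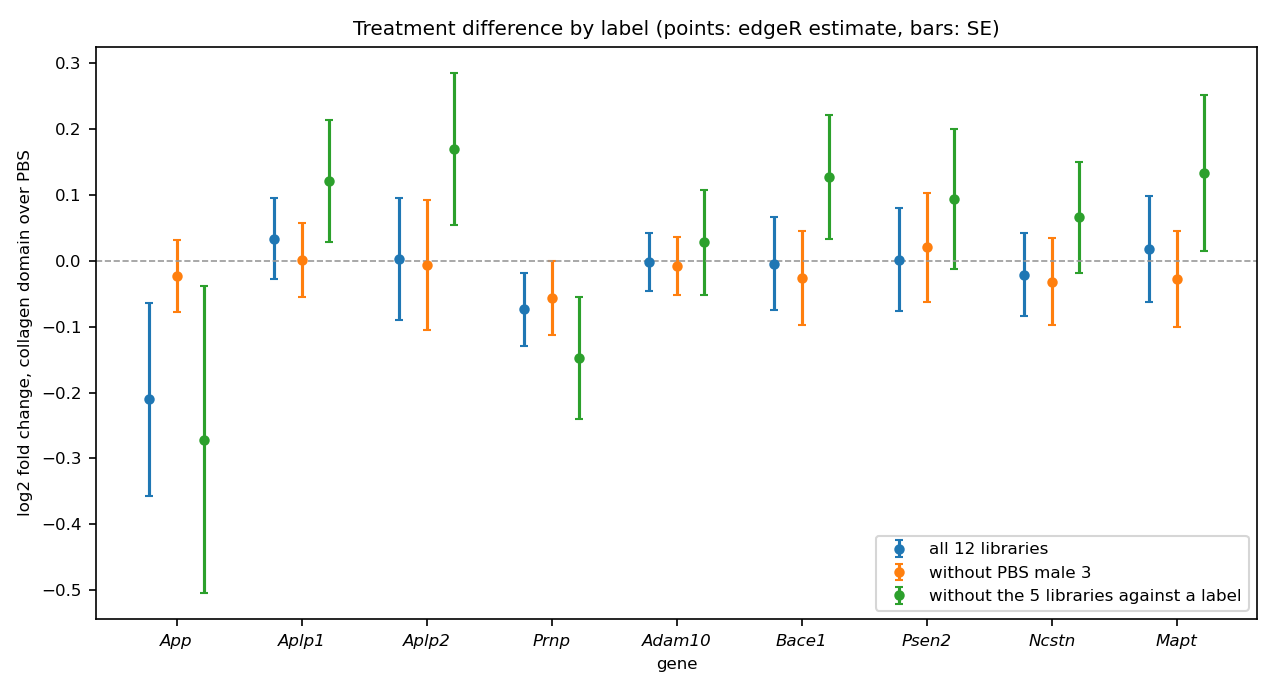
Log2 fold change of collagen domain over PBS for the 9 genes, from edgeR with all 12 libraries (blue), without PBS male 3 (orange) and without the 5 libraries whose reads go against a label (green); bars are 1 SE on each side. App lies at -0.21 with all libraries and at -0.02 without PBS male 3.

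The sexes taken apart gave no call either (edgeR, 0% of genes in females, in males and for the interaction, with 1.46, 1.7 and 1.37% of genes at an unadjusted p under 0.05 and none of the 9 in any of them). App averaged 1377 ± 118 CPM in collagen domain females and 1439 ± 73.5 CPM in PBS females (SD, n = 3 each), a log2 fold change of -0.06 (SE 0.207, edgeR adjusted p = 1). It averaged 1338 ± 55.6 CPM in collagen domain males and 1715 ± 695 CPM in PBS males (SD, n = 3 each), a log2 fold change of -0.36 (SE 0.207, edgeR adjusted p = 1). Without PBS male 3 the value in males was 0.03 (SE 0.0847). The interaction for App was -0.29 (SE 0.293), or 0.09 without PBS male 3. Between males and females by label, App differed by 0.11 (SE 0.146), or by -0.08 without PBS male 3, and edgeR called 0 of 19145 genes (0%), with 1.97% at an unadjusted p under 0.05 and none of the 9 among them.

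None of the 76 pathway genes passed in a treatment comparison, and none had an unadjusted p under 0.05 in both sexes together. Their median log2 fold change was 0.02, against 0.00022 for all genes tested. The outermost were Ttr, the thyroid hormone carrier transthyretin, at 0.37 (SE 0.228), and Cst3 at -0.31 (SE 0.181). The sorting genes of smallest p were Picalm, an adaptor of clathrin-coated vesicles, at -0.09 (SE 0.0450), and Vps26a, a retromer subunit, at -0.12 (SE 0.0691). Among the sheddases these were Adam17 at 0.09 (SE 0.0581) and Mmp14 at 0.25 (SE 0.162). All of these had an edgeR adjusted p of 1. No gene of the plaque-type microglia and reactive astrocyte lists passed, with a median of -0.08 for the 22 plaque-type genes and 0.03 without PBS male 3.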

How the data were processed

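Poly(A) RNA of frozen mouse brain was made into TruSeq version 2 libraries and sequenced on a NextSeq 500 as 75 bp pairs, per the labels' protocols. The authors deposited raw counts of reads, as whole numbers, for each Ensembl ID. STAR, DESeq2 and GRCm39 are named per the submitters' processing notes; the counting tool, its strand setting and its handling of shared reads are not given in the sources used here, so reads of overlapping or near-identical genes could not be separated. Columns were matched to samples by the library names in the labels. Symbols came from GENCODE M21 (42462 of 43629 IDs matched), which is of GRCm38 and gave transcript lengths and gene order only. Promoters are RefSeq's, on GRCm38.p6.

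The test was edgeR's (4.0.16, in R 4.3.3): filterByExpr on the 4 groups, TMM, and a robust quasi-likelihood F-test with Benjamini-Hochberg adjustment over all 19145 genes. An additive fit of sex and treatment gave the treatment difference over both sexes and the sex difference, and a second fit, of the 4 groups, gave the contrasts within a sex and their difference, each on all 12 libraries. CPM uses TMM-scaled totals. The SE of a log2 fold change is its size divided by the square root of F. App was also compared by an exact permutation test of log2(CPM + 1). DESeq2 1.42.0 and limma-voom (limma 3.58.1), RLE factors, other filters, a replicate block, a hindbrain covariate and libraries left out were alternatives. Scripts were tested on simulated data.

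Depth was 39272127 to 52323985 reads per library. Chi-square per degree of freedom between libraries of a group was 11.9 or more, so none repeated another. Same-numbered libraries of different groups deviated together in 7 of 18 pairs (r above 0.1), so the numbers were not taken to pair them. A library went against its treatment label where collagen domain had under 1000 C1qtnf3 reads or PBS had 1000 or more. The members, gene lists, tests and alternatives were chosen with earlier results of these data known. Named genes are the 9 members, of the lists described the 2 of smallest p for treatment and up to 6 at least 2-fold outside the range of the other 11 libraries in PBS male 3, the genes most like each member, and the neighbours of App and Prnp. The other genes given for PBS male 3 were chosen after their values were seen: Psenen, Aph1c, Adam22, Mmp14, Itm2b, Nae1, Vps35, Sort1, Cst3, Apoe, Clu, Ide, Mme, Trem2, Ccl3, Ccl4, Ctsb, Ctsd, Gfap and P2ry12. Some genes that fall under these rules are not reported here.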

Additional observations from a re-analysis of the deposited data

Results flagged for a closer look

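Of 30 sets of values examined, each over the 6 libraries of a treatment, 7 had 1 library far from the rest by Dixon's criterion. About 1 of 20 sets meets it by chance, but that rate does not apply to values picked for their level. All 7 were PBS sets, and in each that library was PBS male 3. App stood there at 2517 CPM, and the App to Aplp2 ratio at 5.04. Cst7 stood at 7.82 CPM, Clec7a at 2.98 CPM, Itgax at 3.01 CPM, Tyrobp at 37.3 CPM and Ccl6 at 5.76 CPM. App and the 5 microglia genes had been picked for their level in this library, so all 7 restate that choice and are no evidence. None of the other 8 genes described with App met the criterion in either treatment.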

How the results depend on the processing

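None of the 9 genes passed in any comparison under any alternative run, and App in PBS male 3 stayed between 0.78 (residual on the hindbrain list) and 0.91 log2 units above the median of the other libraries. Counts of genes called over the whole table moved from 0. Without the 4 libraries against their treatment label, without the 5 against either label, and without those 5 and PBS male 3 (an alternative chosen after seeing the data), edgeR called 2, 2 and 1 genes for treatment in both sexes, 1, 1 and 1 in females, 1, 1 and 1 in males, and 1, 8 and 6 between the sexes. DESeq2 called 3 in males, 1 for the interaction and 8 between the sexes. Leaving out 1 library gave 0 to 1 calls in males (1 without collagen domain female 3) and 0 to 5 between the sexes (5 without PBS male 3). Fits with 1 library left in a group take its spread from the others.

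None of the differences whose direction turned had passed. Without PBS male 3 and the 5, the App log2 fold change was 0.064 in both sexes, 0.049 in males, 0.078 in females and -0.13 between the sexes. In females App was also 0.086 without the 4, 0.078 without the 5 and 0.030 with the hindbrain covariate. For treatment in both sexes, in the order without the 4, without the 5 and without the 5 and PBS male 3, Adam10 was 0.035, 0.028 and 0.033, Bace1 0.11, 0.13 and 0.12, and Ncstn 0.043, 0.066 and 0.077. With the hindbrain covariate Adam10 was 0.0066 and Bace1 0.022. Aplp2 was -0.0023 with no filter and -0.0029 with the replicate block, which called 0 genes in each comparison. Psen2 was -0.00039 with DESeq2, -0.00013 with RLE factors and -0.0029 with no filter. With 1 library left out, the ranges were -0.27 to -0.023 for App, -0.048 to 0.041 for Aplp2, -0.024 to 0.018 for Adam10, -0.044 to 0.022 for Bace1, -0.036 to 0.053 for Psen2, -0.056 to 0.0094 for Ncstn and -0.030 to 0.054 for Mapt. For App they were -0.52 to 0.027 in males, -0.46 to 0.091 for the interaction and -0.080 to 0.16 between the sexes. Other than for PBS male 3, which by its level sets the App difference, the cause was not tested.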
